A study of Mus musculus with 6 samples.

Results

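Annexins, S100 proteins and galectins were followed in the livers of mice with and without a guide RNA against Prdx2, using the counts of 10 genes chosen by symbol out of the 52459 genes in the count table. They were 4 annexins (Anxa1, Anxa2, Anxa3 and Anxa5), 4 S100 genes (S100a4, S100a6, S100a10 and S100a11) and 2 galectins (Lgals1 and Lgals3). All 10 were found and all 10 passed the filter on low counts, as did 17032 genes in total. RNA-Seq had been performed on whole liver from 6 male C57BL6J mice of the Alb-Cre/Cas9 F1 generation, aged 8 months, in which Cre under the albumin promoter turns on the Cas9 nuclease in hepatocytes. The vector AAV8-U6-sgCtrl, with a control guide, was injected in 3 of them (sgCtrl, mice 5.1, 7.1 and 7.2), and AAV8-U6-sgPrdx2, with a guide against the thiol peroxidase gene Prdx2, in the other 3 (sgPrdx2, mice 1.1, 1.3 and 3.2). Both groups received the vector at 4 to 5 weeks of age, the liver carcinogen diethylnitrosamine (DEN) at 100 mg/kg after 3 more weeks, and from 1 week later, over 6 months, the high-fat diet CDAHFD, which lacks choline, so that every liver compared here was diseased. Cas9 is thus switched on in hepatocytes, while the RNA came from all cells of the liver.

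Annexins are calcium-dependent proteins that bind negatively charged phospholipids, and they take part in membrane repair, vesicle traffic and the resolution of inflammation. S100 proteins are small calcium sensors of the EF-hand type that act by binding partners, among them annexins. Galectins are secreted lectins that bind beta-galactosides on glycoproteins and cross-link receptors at the cell surface. In the liver these genes are better known from macrophages, bile duct cells, myofibroblasts and injured or transformed hepatocytes than from resting hepatocytes, and several of them are used as markers of inflammation, fibrosis and liver cancer.

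Total counts ranged from 37462102 to 56865293 per liver, at which 3 counts correspond to 0.0555 to 0.0921 CPM (counts divided by library size on a common scale) after normalization by edgeR's TMM method, counting error only. Each of the 10 genes had at least 146 counts in every liver. Prdx2 had 109 to 132 CPM in sgCtrl and 99.0 to 149 CPM in sgPrdx2 livers (log2 fold change 0.01, standard error 0.18, adjusted p = 0.983 by edgeR's quasi-likelihood test), so its RNA level did not separate the groups and did not check the labels. Cas9 edits need not lower the amount of an RNA, and whole-liver RNA includes cells in which Cas9 was not switched on. The cause of the unchanged Prdx2 level was not tested. Albumin RNA (Alb) was at 58814 CPM or above in all 6 livers, as the labelled tissue requires. Libraries differed in a trend with transcript length, most of all sgPrdx2 liver 3.2. There, genes with transcripts under 1 kb (2333 genes) were higher by a median log2 difference of 0.51 than the mean of livers 1.1 and 1.3. Genes over 6 kb (1201 genes) were at -0.44. The Spearman correlation with transcript length was -0.51 in liver 3.2, 0.01 in liver 1.1 and 0.08 in liver 1.3. In sgCtrl livers 5.1, 7.1 and 7.2 it was 0.23, 0.42 and 0.06. Leaving out liver 3.2 thus does not remove the trends of the sgCtrl livers. The log2 fold changes of the 10 genes, and the calls in each list read beside them, are given with and without liver 3.2.

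None of the 10 genes was called at an adjusted p under 0.05 when edgeR's quasi-likelihood p were adjusted by Benjamini-Hochberg over all 17032 genes, where 567 genes (3.33%) were called and 262 (1.54%) were called as lower in sgPrdx2 livers. All 10 had log2 fold changes below 0, with a median of -0.30 against -0.02 for all genes tested. By unadjusted p under 0.05, 4 of the 10 were lower (Anxa1, Anxa2, Anxa3 and Lgals3), beside 11.9% of all genes. DESeq2 called 3 of the 10 as lower (Anxa1, Anxa2 and Anxa3), beside 6.07% of the 14799 genes to which it gave an adjusted p. In 3 of the 10, again these annexins, every sgPrdx2 liver lay below every sgCtrl liver, an order shown by 17.5% of all genes tested. In whole-liver RNA, fewer cells of a type and less RNA per cell cannot be told apart.

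**Figure D1:**
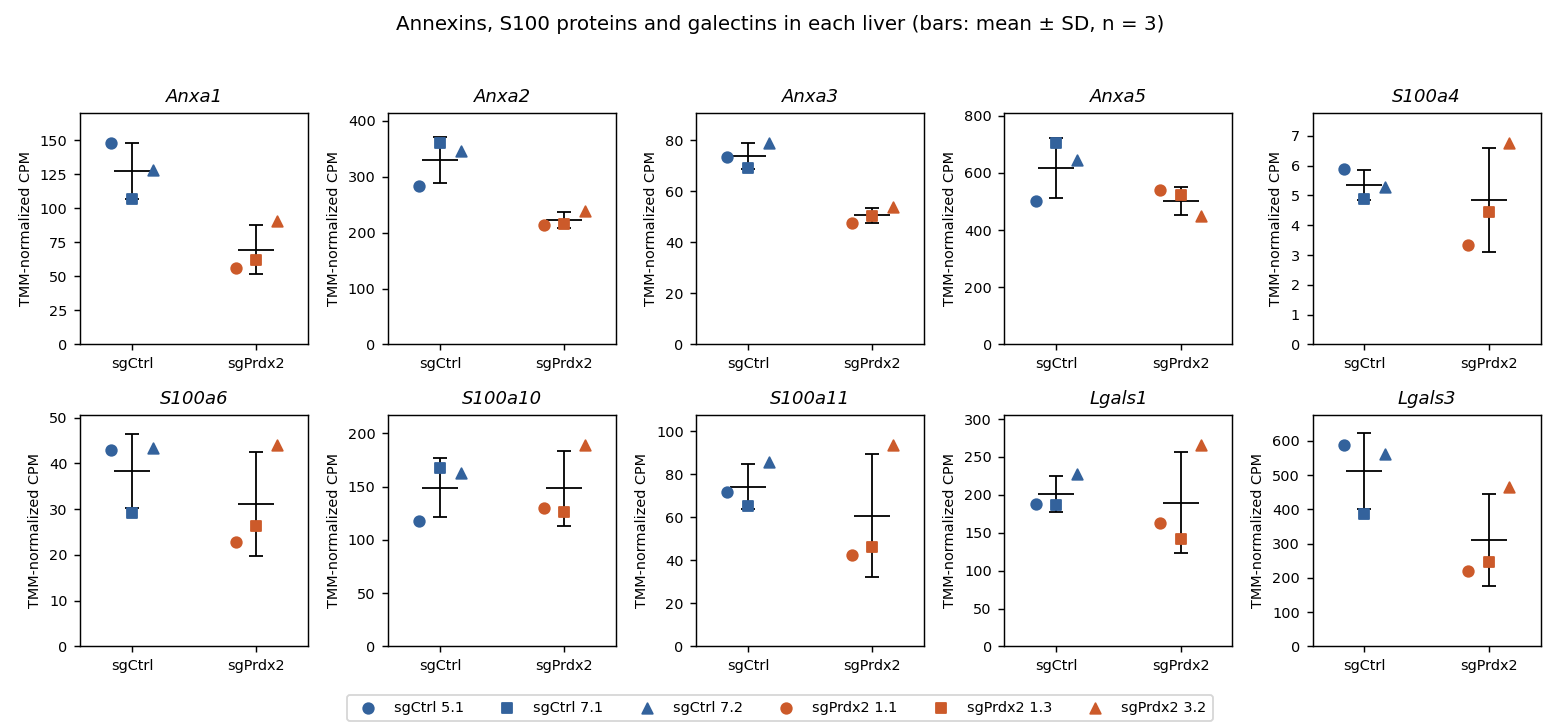
TMM-normalized CPM (vertical axes, from 0) of the 10 genes in each of the 3 sgCtrl livers (blue) and 3 sgPrdx2 livers (orange), with a marker shape for each mouse and black bars for the mean ± SD (n = 3). The groups are separate for Anxa1, Anxa2 and Anxa3. The orange triangle, liver 3.2, is the highest of the 6 livers for S100a4, S100a6, S100a10, S100a11 and Lgals1. It is so too for 30.0% of all genes tested and 60.9% of genes with transcripts under 1 kb.

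Promoter sequences from RefSeq (GRCm38.p6, 250 bases before to 50 bases after the start) were found for 7 of the 10 genes. The AP-1 motif TGANTCA, the same on both strands, was in the windows of Anxa2 (1 match) and S100a11 (2 matches), and in 7.81% of 32851 windows of this length. The TATA box TATAAA was in those of Anxa1, Anxa2 and S100a4 (13.6% of all windows), and the GC box GGGCGG in those of Anxa2, S100a11 and Lgals3 (35.7%), both strands searched. No AP-1 match overlapped another motif. The stretches before the first annotated exon of Anxa2 (chr9:69453433-69453619, plus strand) and S100a11 (chr3:93520246-93520487, plus strand) are shown because they hold the AP-1 matches, given in capitals.
Anxa2: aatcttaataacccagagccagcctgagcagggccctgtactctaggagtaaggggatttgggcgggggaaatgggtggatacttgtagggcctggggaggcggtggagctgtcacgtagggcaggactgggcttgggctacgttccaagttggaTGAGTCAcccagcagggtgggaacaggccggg
S100a11: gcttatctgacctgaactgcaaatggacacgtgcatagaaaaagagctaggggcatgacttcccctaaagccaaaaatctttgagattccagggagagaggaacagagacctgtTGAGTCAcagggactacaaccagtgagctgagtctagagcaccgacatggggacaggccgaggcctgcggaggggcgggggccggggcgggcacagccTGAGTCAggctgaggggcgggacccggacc
A match is a description of these letters and not of a bound site.

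Among the annexins, Anxa1 had the largest difference. Anxa1 encodes a glucocorticoid-induced protein that acts through formyl peptide receptors to limit the recruitment of neutrophils. Its level was 148, 107 and 128 CPM in sgCtrl livers 5.1, 7.1 and 7.2, and 56.3, 62.3 and 90.3 CPM in sgPrdx2 livers 1.1, 1.3 and 3.2. Each sgPrdx2 liver was thus below the lowest sgCtrl liver, and liver 3.2 was the nearest to the controls. The log2 fold change was -0.87 with a standard error of 0.21 (0.546-fold, edgeR adjusted p = 0.0643), and without liver 3.2 it was -1.09 (standard error 0.16, edgeR adjusted p = 0.0376).

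Anxa2 binds S100A10 in a tetramer at the cell surface that serves as a docking site for tissue plasminogen activator and plasminogen. Its level was 284, 361 and 346 CPM in sgCtrl livers and 214, 216 and 238 CPM in sgPrdx2 livers, in the same order of mice. The sgPrdx2 livers lay close together and did not overlap with sgCtrl. The log2 fold change was -0.57 (standard error 0.15, edgeR adjusted p = 0.0723) with all livers and -0.61 (edgeR adjusted p = 0.0688) without liver 3.2. No 50-base stretch of the Anxa2 or Anxa1 transcript was found in a transcript of another gene, on either strand.

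Anxa3, an annexin abundant in neutrophils, was measured at 73.6, 69.0 and 78.9 CPM in sgCtrl and 47.7, 50.4 and 53.7 CPM in sgPrdx2 livers. Its spread within each group was small, with SDs of 4.95 and 3.01 CPM (n = 3 each), and the groups did not overlap. The log2 fold change was -0.54 (standard error 0.12), with the smallest adjusted p among the 10 genes (0.0544, edgeR). Without liver 3.2 it was -0.58 (edgeR adjusted p = 0.0458).

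Anxa5, whose protein binds phosphatidylserine and is used to stain dying cells, did not separate the groups. Its level was 502, 705 and 645 CPM in sgCtrl livers and 541, 521 and 448 CPM in sgPrdx2 livers. In it, sgCtrl liver 5.1 was below sgPrdx2 livers 1.1 and 1.3, and liver 3.2 was the lowest of the 6. The log2 fold change of -0.29 (standard error 0.17, edgeR adjusted p = 0.328) had a 95% interval from -0.69 to 0.11, and it was -0.21 (edgeR adjusted p = 0.505) without liver 3.2.

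In the S100 genes, the groups overlapped at every member. S100a11 encodes a partner of annexin A1 and had 71.8, 65.3 and 85.5 CPM in sgCtrl livers and 42.5, 46.2 and 93.5 CPM in sgPrdx2 livers. Livers 1.1 and 1.3 were below all 3 sgCtrl livers and liver 3.2 was above all of them. Its log2 fold change was -0.29 (standard error 0.30, edgeR adjusted p = 0.572) and moved to -0.73 (standard error 0.14, edgeR adjusted p = 0.0472) when liver 3.2 was left out. The counts of S100a11 are less certain, since 41.1% of the 50-base stretches of its transcript also lie in transcripts of Gm12854, Gm7665 or Gm29240, which had 26 to 67, 89 to 211 and 2 to 11 counts per liver beside 1867 to 4494 for S100a11.

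S100a6, or calcyclin, is a calcium sensor found in fibroblasts and epithelial cells. It was counted at 42.9, 29.1 and 43.3 CPM in sgCtrl livers and at 22.9, 26.3 and 44.0 CPM in sgPrdx2 livers, which is the same order as for S100a11. Its log2 fold change was -0.31 (edgeR adjusted p = 0.499) with liver 3.2 and -0.63 (edgeR adjusted p = 0.105) without it.

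S100a4, known as fibroblast-specific protein and from cell motility, had few reads. It had 5.89, 4.87 and 5.29 CPM in sgCtrl livers and 3.33, 4.46 and 6.76 CPM in sgPrdx2 livers, again with livers 1.1 and 1.3 below and liver 3.2 above all controls. With all livers the log2 fold change was -0.15 (edgeR adjusted p = 0.747), and it was -0.45 (edgeR adjusted p = 0.193) without liver 3.2. Of its 50-base stretches, 56.3% are shared with the overlapping Gm42674, which is listed at 0 in all livers. How reads from shared stretches were counted is not known, so the counts of S100a4 are less certain too.

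S100a10, the partner of annexin A2 that has lost calcium binding, was at 118, 167 and 162 CPM in sgCtrl livers and at 130, 126 and 189 CPM in sgPrdx2 livers. Here sgCtrl liver 5.1 was the lowest of the 6 livers and liver 3.2 the highest. Its log2 fold change was -0.0083, with a 95% interval from -0.50 to 0.48, and it had no steady sign, since RLE factors gave 0.0067. Without liver 3.2 it was -0.21 (edgeR adjusted p = 0.492).

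The galectins split in the same manner. Lgals3 encodes the chimeric galectin-3, abundant in macrophages and bile duct cells, and had 588, 386 and 562 CPM in sgCtrl livers and 220, 247 and 464 CPM in sgPrdx2 livers. Livers 1.1 and 1.3 were below every sgCtrl liver, and liver 3.2 lay between sgCtrl livers 7.1 and 7.2. The log2 fold change was -0.72 (standard error 0.31, edgeR adjusted p = 0.194), and -1.12 (standard error 0.21, edgeR adjusted p = 0.0464) without liver 3.2.

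Lgals1, a dimeric galectin of stromal cells, had 188, 186 and 228 CPM in sgCtrl livers and 162, 142 and 266 CPM in sgPrdx2 livers. As for S100a4, S100a6 and S100a11, livers 1.1 and 1.3 were the lowest and liver 3.2 the highest of the 6. Its log2 fold change was -0.08 (95% interval -0.64 to 0.48, edgeR adjusted p = 0.855), and -0.39 (edgeR adjusted p = 0.165) without liver 3.2.

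Across the members, livers 1.1 and 1.3 were both below every sgCtrl liver for 8 of the 10 genes (all but Anxa5 and S100a10), an order that 23.9% of all genes tested showed. In 4 of the 10 (S100a4, S100a6, S100a11 and Lgals1) liver 3.2 was in addition above every sgCtrl liver, beside 2.38% of all genes and 3.99% of the 2333 genes under 1 kb. This order was noticed in the values before it was counted. When liver 3.2 was left out, edgeR called 4 of the 10 as lower (Anxa1, Anxa3, S100a11 and Lgals3), beside 1.68% of the 17557 genes tested there, and the median log2 fold change of the 10 was -0.59.

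Transcript length moved with these orders. The S100 and Lgals1 transcripts are 498 to 800 bases long, Lgals3 is 1298 bases, and the annexins are 1447 to 1731 bases. Relative to the mean of livers 1.1 and 1.3, liver 3.2 differed by 0.56 to 1.08 on the log2 scale for the 4 S100 genes, 0.81 for Lgals1 and 0.99 for Lgals3. The same difference was 0.61 for Anxa1, 0.15 for Anxa2, 0.13 for Anxa3 and -0.25 for Anxa5. Genes of the same length classes had medians of 0.51 (under 1 kb) and 0.25 (1 to 2 kb), so S100a10 lay near the median of its class. S100a4, S100a6, S100a11 and Lgals1 exceeded the upper quartile of the shortest class (0.79), and Anxa1 and Lgals3 that of the next (0.51). The cause of the length trend was not tested.

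**Figure D2:**
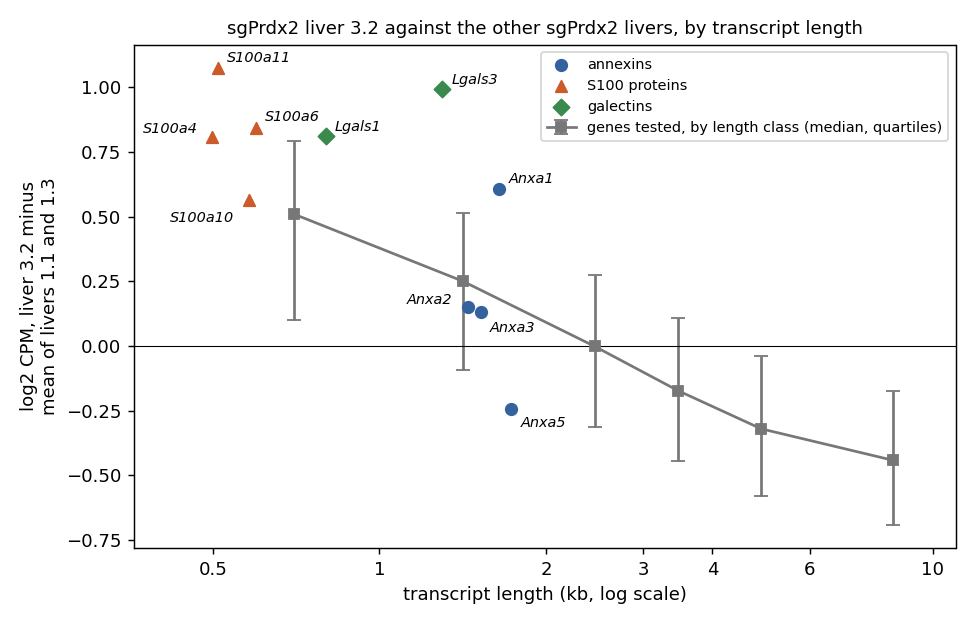
Log2 CPM of sgPrdx2 liver 3.2 minus the mean of sgPrdx2 livers 1.1 and 1.3 (vertical axis) against transcript length in kb (horizontal log axis), for 16563 genes as the median and quartiles of 6 length classes (grey) and for the 10 genes (coloured by family). The grey medians run from 0.51 under 1 kb to -0.44 over 6 kb, and the S100 genes and galectins lie above the median of their class.

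A trend on transcript length and GC content was then removed from each library, a correction chosen after the values were seen. With it, all 10 log2 fold changes stayed below 0, with a median of -0.57 against 0.01 for all genes, and edgeR called 4 of the 10 as lower (Anxa1, Anxa2, Anxa3 and Lgals3), beside 2.85% of all genes. Corrected log2 fold changes were -0.90 for Anxa1, -0.70 for Anxa2, -0.61 for Anxa3 and -0.94 for Lgals3, with edgeR adjusted p of 0.0494, 0.0337, 0.0271 and 0.0473. Those of the 4 S100 genes and Lgals1 ranged from -0.57 to -0.24, and none of them was called. On the corrected scale every sgPrdx2 liver was below every sgCtrl liver for 8 of the 10 genes, beside 16.1% of all genes. Some of these gaps were narrow. For S100a6 the highest sgPrdx2 liver was at 33.0 and the lowest sgCtrl liver at 33.4 corrected CPM, and for S100a4 at 5.24 and 5.38.

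**Figure D3:**
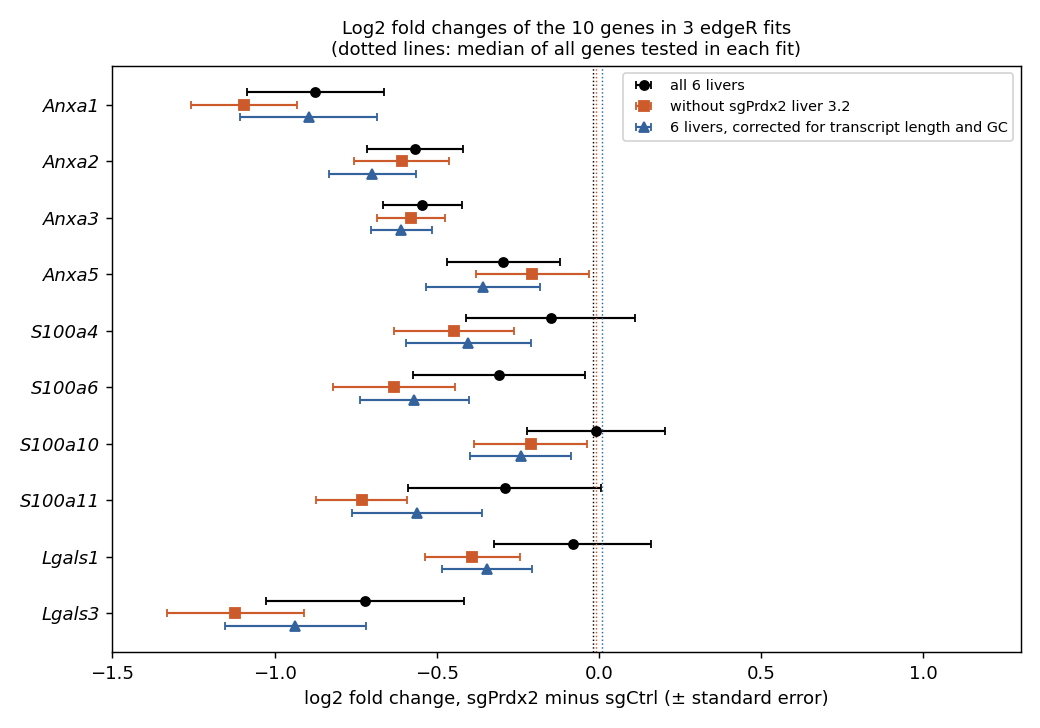
Log2 fold changes, sgPrdx2 minus sgCtrl (horizontal axis, ± standard error), of the 10 genes in edgeR fits with all 6 livers (black), without liver 3.2 (orange) and with all livers after correction for transcript length and GC content (blue), with dotted lines at the median of all genes in each fit. Anxa2 and Anxa3 have close values in the 3 fits, while S100a4, S100a6, S100a11, Lgals1 and Lgals3 lie further below 0 in the orange and blue fits than in the black one.

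Scaling also bore on the level of these values. TMM places the typical gene near 0. Scaling to 6 housekeeping genes of a prognostic assay, or to library size alone, shifted the median of all genes to -0.38 and -0.39. Of these 6 housekeeping genes, 5 had themselves log2 fold changes above 0 under TMM, and the median of the 6 was 0.43. None of the 6 was called by edgeR, and 3 had an unadjusted p under 0.05, beside 4241 of all 17032 genes in either direction. DESeq2 called 3 as higher (Atp5b, Cox8a and Ndufa2), beside 1168 of the 14799 genes to which it gave an adjusted p. With the housekeeping scale, edgeR called 4 of the 10 as lower (Anxa1, Anxa2, Anxa3 and Lgals3), beside 5.4% of all genes, and with library size 5 of the 10 (with Anxa5 added), beside 17.9%. Relative to the median of all genes, the median of the 10 was -0.28 with TMM, -0.33 with the housekeeping genes and -0.31 with library size. Over the 16 alternative settings, adjusted p (edgeR, and DESeq2 in 1 of them) ranged from 0.00274 to 0.182 for Anxa1, from 0.00613 to 0.216 for Anxa2 and from 0.00265 to 0.188 for Anxa3. It ranged from 0.0327 to 0.398 for Lgals3, from 0.0421 to 0.628 for Anxa5 and from 0.0472 to 0.882 for S100a11. S100a4, S100a6, S100a10 and Lgals1 were called in none of the 16, with ranges from 0.124 to 0.916, 0.0688 to 0.803, 0.130 to 0.997 and 0.0961 to 0.975.

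Levels of different genes were compared per length, as mean CPM per kb of transcript. In sgCtrl livers the order was led by Lgals3 at 394 ± 84.6 CPM per kb (SD, n = 3) and Anxa5 at 357 ± 60.1. They were followed by S100a10 at 257 ± 47.1, Lgals1 at 251 ± 29.4 and Anxa2 at 228 ± 28.3. Neighbours among these 5 did not differ beyond their SDs. S100a11 stood lower at 145 ± 20.2, Anxa1 at 77.4 ± 12.4, S100a6 at 64.4 ± 13.6 and Anxa3 at 48.5 ± 3.25, and neighbours among the last 3 again did not differ beyond their SDs. S100a4 was far below at 10.7 ± 1.03 CPM per kb. Its place is less certain, since 56.3% of its 50-base stretches are shared with Gm42674 and the counting of shared reads is not known.

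In sgPrdx2 livers Anxa5 was at the top with 291 ± 28.3 CPM per kb (SD, n = 3), before S100a10 at 255 ± 60.8, Lgals3 at 239 ± 103 and Lgals1 at 237 ± 83.2. Lgals3 was thus the top gene of the sgCtrl order but below Anxa5 and S100a10 in the sgPrdx2 order. With the wider SDs of this group, only S100a4, at 9.73 ± 3.51 CPM per kb, was separated from its neighbour in the order by more than the SDs. Its level has the same limit as in sgCtrl livers.

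The pair of Anxa2 and S100a10 was examined within each library, since a ratio of counts needs no scaling between libraries. There were 2.41, 2.16 and 2.13 counts of Anxa2 for each count of S100a10 in sgCtrl livers, and 1.65, 1.72 and 1.26 in sgPrdx2 livers. The ratios did not overlap, and liver 3.2 had the lowest. On the log2 scale the difference was -0.55 (p = 0.1 by an exact permutation test, two-sided, which cannot go lower with 3 livers against 3), from a mean of 1.16 ± 0.10 to 0.61 ± 0.24 (SD, n = 3). It was -0.41 without liver 3.2 and -0.46 after the correction for length and GC content. A ratio shows that the 2 RNAs differed unequally and not which of them did.

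Receptors and binding partners of these families were read from a list of 18 genes, of which 17 were tested, Fpr3 being listed at 0. The list was chosen with earlier results of these data known, so its counts are a description. In this list, edgeR called 4 genes as lower, beside 1.54% of all genes tested, and 0 as higher. They were Plat, tissue plasminogen activator, Plau, urokinase, Plaur, the urokinase receptor, and Cd44, a hyaluronan receptor. Plat fell from 33.7, 36.4 and 38.0 CPM in sgCtrl livers to 19.5, 22.5 and 14.7 CPM in sgPrdx2 livers (log2 fold change -0.93, standard error 0.17, edgeR adjusted p = 0.0399). Plau fell from 29.7, 28.1 and 27.5 CPM to 13.5, 13.9 and 8.57 CPM (log2 fold change -1.24, standard error 0.19, edgeR adjusted p = 0.0358). The receptor followed in the same direction.

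Plaur fell from 26.4, 18.9 and 21.2 CPM to 8.48, 10.9 and 12.3 CPM (log2 fold change -1.07, standard error 0.19, edgeR adjusted p = 0.0394). Cd44 fell from 73.8, 69.0 and 65.9 CPM to 37.1, 40.3 and 34.5 CPM (log2 fold change -0.90, standard error 0.12, edgeR adjusted p = 0.0328). For all 4, each sgPrdx2 liver was below each sgCtrl liver, and liver 3.2 was the lowest for Plat, Plau and Cd44. Plg, the plasminogen that hepatocytes secrete, had values in the other direction, with 1028 to 1470 CPM in sgCtrl and 2167 to 2489 CPM in sgPrdx2 livers, and was just outside the threshold (log2 fold change 0.84, edgeR adjusted p = 0.0504, and 0.88 with 0.0582 without liver 3.2). Plg was singled out after its values were seen. Of the 17 tested, 15 had log2 fold changes below 0 with a median of -0.49, and 12 were lower in every sgPrdx2 than in every sgCtrl liver, beside 17.5% of all genes. Without liver 3.2 edgeR again called Plat, Plau, Plaur and Cd44, with log2 fold changes of -0.77, -1.04, -1.18 and -0.84, beside 1.68% of all genes. The 4 calls were lost, as were those of all genes tested, when liver 5.1, 7.2, 1.1 or 1.3 was left out.

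**Figure D4:**
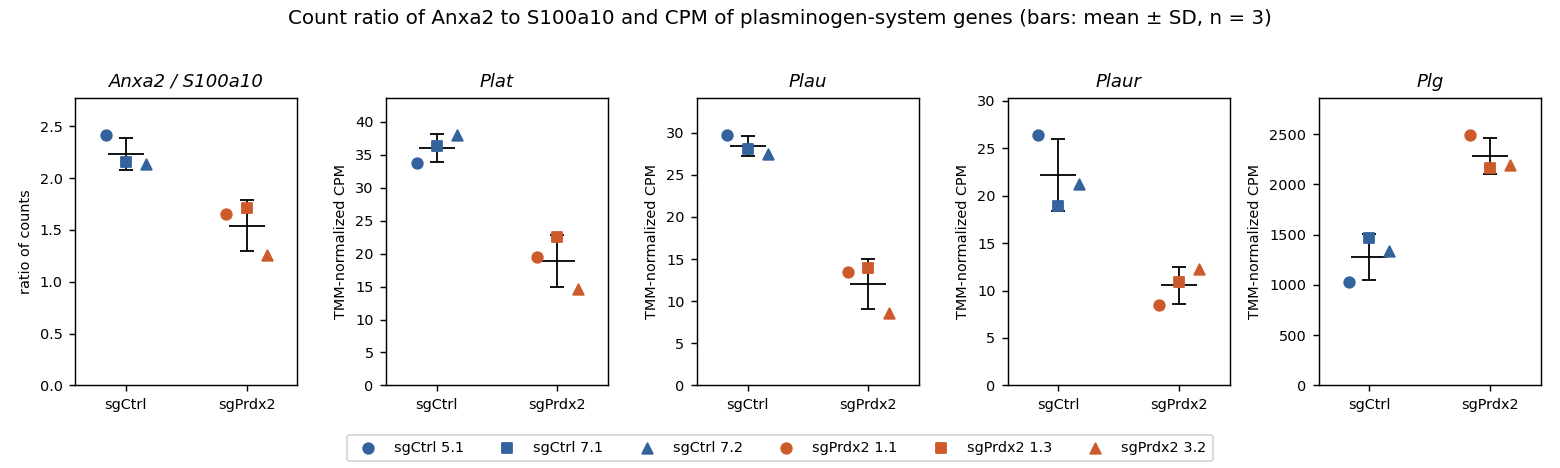
Ratio of Anxa2 to S100a10 counts (first panel) and TMM-normalized CPM of Plat, Plau, Plaur and Plg (other panels) in each sgCtrl (blue) and sgPrdx2 (orange) liver, with vertical axes from 0 and black bars for the mean ± SD (n = 3). The groups do not overlap in any panel, with Plg higher and the others lower in sgPrdx2 livers.

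Other genes of the 3 families were read from lists of 8 annexins, 12 S100 genes and 8 galectins, of which 7, 7 and 5 were tested. None was called by edgeR with all livers or without liver 3.2. With all livers 5 had an unadjusted p under 0.05, beside 4241 of all 17032 genes tested, in either direction. DESeq2 called 4 (Anxa4, S100a1, S100a13 and S100g), beside 2066 of the 14799 genes to which it gave an adjusted p. Among the annexins, the smallest p were those of Anxa4 and Anxa6. Anxa4, an epithelial annexin, had 223, 199 and 215 CPM in sgCtrl and 152, 159 and 171 CPM in sgPrdx2 livers (log2 fold change -0.40, edgeR adjusted p = 0.116, and -0.43 without liver 3.2). Anxa6 had the opposite sign, with 195 to 228 CPM in sgCtrl and 240 to 328 CPM in sgPrdx2 livers (log2 fold change 0.37, edgeR adjusted p = 0.208), although it was at 0.24 without liver 3.2, -0.01 under library size and -0.02 under housekeeping scaling.

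The S100 family held differences of both signs. S100a1, known from heart and skeletal muscle, had 72.9 to 80.6 CPM in sgCtrl and 97.1 to 151 CPM in sgPrdx2 livers (log2 fold change 0.65, edgeR adjusted p = 0.0809, and 0.48 without liver 3.2). S100g, a calbindin that binds calcium in epithelia, had 0.667 to 6.58 CPM and 0.501 to 1.01 CPM (log2 fold change -2.27, edgeR adjusted p = 0.117, and -2.61 without liver 3.2). S100a13 and S100a16, named after their values were seen, had log2 fold changes of 0.80 and 0.41 and were also higher in each sgPrdx2 liver. Their transcripts are short, at 715 and 902 bases, and their log2 fold changes were 0.42 and 0.23 without liver 3.2, and 0.52 and 0.18 with the length and GC correction. S100a1, S100a13 and S100a16 had log2 fold changes above 0 in each of the 17 fits, although S100a16 was at 0.02 under library size and 0.01 under housekeeping scaling, where the median of all genes was also shifted.

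Apart from S100g on the X chromosome, the S100 genes named here lie in 2 stretches of chromosome 3. In GRCm38, by the GENCODE M21 annotation, S100a1 (chromosome 3, 90511034 to 90514392, minus strand), S100a13, S100a14 (90526856 to 90528837, plus strand), S100a16, S100a4 (90603771 to 90606045, plus strand) and S100a6 (90612882 to 90624181, plus strand) lie in 1 cluster. S100a11 (93520488 to 93526287) and S100a10 (93555080 to 93564643), both on the plus strand, are neighbours further along the chromosome. S100a14, which lies between S100a13 and S100a16, had a log2 fold change of -1.16 (edgeR adjusted p = 0.205), and the relation of position to direction was not tested. S100a14 had few reads, at 0.419 to 1.12 CPM in sgCtrl and 0.154 to 0.518 CPM in sgPrdx2 livers, and the groups overlapped. Among the other galectins, Lgals2 and Lgals9 had the smallest p, with log2 fold changes of -1.14 and 0.21 (edgeR adjusted p of 0.260 and 0.425). Without liver 3.2 these were -1.22 and 0.18. Lgals2 also had few reads, at 1.83, 0.378 and 0.647 CPM in sgCtrl and 0.319, 0.481 and 0.491 CPM in sgPrdx2 livers, with overlapping groups. S100a8 and S100a9, the calprotectin genes of neutrophils, had log2 fold changes of -0.15 and -0.13 with all livers, -0.45 and -0.25 without liver 3.2, and -0.35 and -0.31 with the length and GC correction, on transcripts of 486 and 515 bases.

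**Figure D5:**
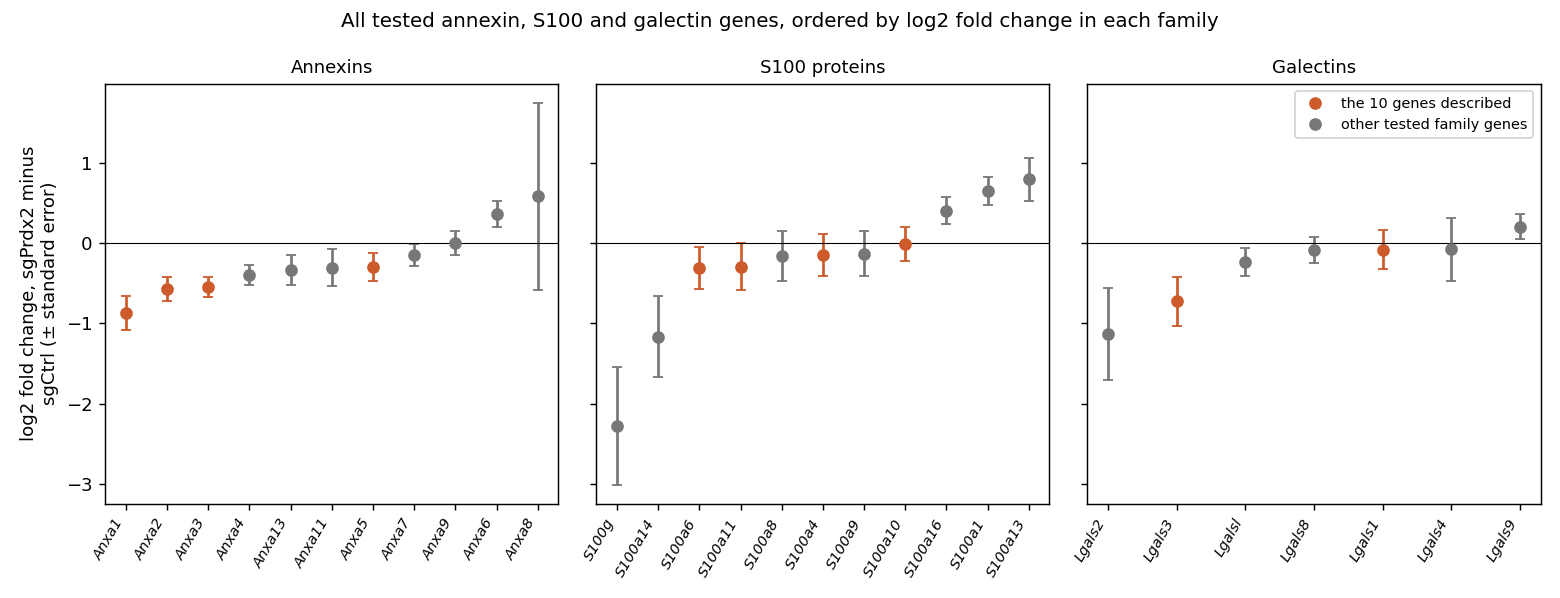
Log2 fold changes, sgPrdx2 minus sgCtrl (vertical axis, ± standard error), of all tested annexin, S100 and galectin genes, ordered within each family, with the 10 genes in orange and the others in grey. Anxa1, Anxa2 and Anxa3 are at the low end of the annexins, and the S100 family runs from S100g at -2.27 to S100a13 at 0.80.

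Markers of the cell types that carry these proteins were read beside them. Over all genes tested, edgeR called 1.54% as lower and 305 of 17032 as higher. Without liver 3.2 it called 1.68% as lower and 324 of 17557 as higher. DESeq2 called 6.07% of 14799 genes as lower, and 4241 of 17032 genes had an unadjusted p under 0.05 by edgeR in either direction. The 12 macrophage markers all had log2 fold changes below 0, with 2 called as lower by edgeR (Gpnmb and Mpeg1), and summed to 4109 to 4804 CPM in sgCtrl and 2759 to 3556 CPM in sgPrdx2 livers. Of 10 bile duct markers, 9 were below 0 and 1 was called (Cldn4), with sums of 1721 to 1941 and 1291 to 1473 CPM. Of 10 stellate cell and myofibroblast markers, 9 were below 0 and 0 were called, with sums of 2302 to 2617 and 1660 to 1706 CPM, while 7 had an unadjusted p under 0.05 and DESeq2 called 4. These 3 sums, and those of the endothelial, neutrophil and oncofetal markers given next, were lower in each sgPrdx2 liver than in each sgCtrl liver, as were Anxa1, Anxa2 and Anxa3. In liver 3.2 the first 3 were 3556, 1291 and 1672 CPM. Without liver 3.2 edgeR called 3 macrophage markers (Cd68, Gpnmb and Mpeg1), 1 bile duct marker (Cldn4) and 2 stellate cell and myofibroblast markers (Acta2 and Tagln) as lower. The hepatocyte markers went the other way, with 5 of 10 called as higher and sums of 78843 to 84491 and 135193 to 181528 CPM (3 called without liver 3.2). DESeq2 called 4 macrophage and 3 bile duct markers as lower and 8 hepatocyte markers as higher, beside 1168 of 14799 genes as higher.

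Endothelial markers summed to 492 to 499 CPM in sgCtrl and 377 to 467 CPM in sgPrdx2 livers, with 1 of 10 called as lower (Pecam1, also without liver 3.2) and 3 by DESeq2 (Pecam1, Lyve1 and Vwf). T and NK cell markers summed to 22.5 to 33.6 and 19.8 to 25.7 CPM, with 1 of 8 called (Cd8a, also by DESeq2, and 0 without liver 3.2). Neutrophil markers summed to 18.3 to 21.5 and 14.8 to 16.4 CPM over 6 tested of 10, 0 of them called by edgeR, with or without liver 3.2, or by DESeq2 (4 with an unadjusted p under 0.05). Most of this was Csf3r, the receptor of granulocyte colony-stimulating factor, with 15.2 to 16.8 CPM in sgCtrl and 11.2 to 13.4 CPM in sgPrdx2 livers (log2 fold change -0.42, edgeR adjusted p = 0.107), singled out after its values were seen. Mesothelial markers (5 tested of 6) summed to 10.1 to 19.9 and 9.37 to 13.7 CPM and B cell markers (6) to 15.2 to 19.9 and 18.98 to 26.5 CPM, with 0 called in both by edgeR, with or without liver 3.2, or by DESeq2, and unadjusted p under 0.05 for 0 and 1. Of 10 oncofetal and progenitor markers, 8 were below 0 and 3 were called as lower (Ly6d, Golm1 and Prom1, again without liver 3.2 and by DESeq2). Their sums were 399 to 529 and 237 to 388 CPM, of which Ly6d alone had 210 to 240 and 82.1 to 139 CPM. Igf2 and H19 had log2 fold changes of 1.02 and 0.88, and Afp and Gpc3 of -0.14 and -0.10, with overlapping groups for each. No marker in these lists was at 0 in all livers, and Trem2 is in both the macrophage and the partner list. The part of these cell types in the values of the 10 genes was not tested.

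The genes most like the 10 in pattern were sought among 9174 genes of at least 10 CPM outside all lists. The mean standardised log2 CPM of the 10 was 0.33, 0.37 and 0.82 in sgCtrl livers 5.1, 7.1 and 7.2, and -1.06, -0.88 and 0.41 in sgPrdx2 livers 1.1, 1.3 and 3.2. Correlations with this mean are a description over these 6 livers, which differ in group and in length trend. The highest Pearson correlations were those of Pck2, Mark4, Jpt1, Cd14 and Lcn2, at 0.986 to 0.997. Cd14, a receptor for bacterial lipopolysaccharide, had 50.7, 55.3 and 66.9 CPM in sgCtrl and 28.6, 31.8 and 49.5 CPM in sgPrdx2 livers. Lcn2, the acute phase protein lipocalin-2, had 637, 605 and 796 CPM and 326, 339 and 563 CPM. In both genes liver 3.2 was the nearest to the controls, which follows from choosing them by this pattern. Neither was called (edgeR adjusted p of 0.129 and 0.123). Pck2, Mark4 and Jpt1 had log2 fold changes of -0.40, -0.08 and -0.31 and were not called either (edgeR adjusted p of 0.236, 0.661 and 0.308).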

How the data were processed

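Whole-liver RNA of 3 sgCtrl and 3 sgPrdx2 mice was sequenced, with groups taken from the guide RNA in the labels. The authors deposited raw counts of reads per gene, and their processing notes name HISAT2, HTSeq, DESeq2 and GRCm38 without versions. The annotation and strandedness are not given in the sources used here. A second deposited table holds the authors' own DESeq2 comparison and was not used. Counts were filtered with filterByExpr (minimum count 10), normalized by TMM and tested by edgeR 4.0.16 (quasi-likelihood, R 4.3.3) without covariates, with Benjamini-Hochberg adjustment over 17032 genes. Standard errors are the log2 fold change over the square root of F, and log2 CPM used a prior count of 0.5. DESeq2 1.42.0, other scalings and filters, leaving out each liver, and loess corrections of length and GC content (span 0.5, added after seeing the data) were alternatives. Lengths (median per gene) came from GENCODE M21, which matched 97.2% of genes tested, and promoters from RefSeq. The fits were tested on simulated data. The members and all lists were chosen with earlier results of these data known. Named were all members, called genes of the family and partner lists or otherwise their 2 of smallest p, and the 5 genes most like the members. Markers were named mostly where called. Named outside this rule were Plg, S100a8, S100a9, S100a13, S100a14 and S100a16, and the markers Csf3r, Igf2, H19, Afp and Gpc3. Each liver came from its own mouse. Depth, at 37462102 to 56865293 counts, limits only the rarest genes.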

Additional observations from a re-analysis of the deposited data

How the results depend on the processing

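The calls of the 10 genes depended on the processing more than their direction did. Genes called numbered 567 with all settings as described, 3247 with library size alone, 989 with housekeeping scaling, 2066 with DESeq2, 1128 without a filter and 1133 with the length and GC correction. Members called were 0, and 5, 4, 3, 1 and 4 in these settings, 1 with at least 10 counts in every liver (Anxa3) and 3 with the length correction alone. Without a filter the 1 was Anxa1. Other family genes called were 0, and 4 with library size, 1 with housekeeping scaling, 4 with DESeq2 and 2 without a filter. Receptors and partners called were 4, and 11 with library size, 7 with housekeeping scaling and 7 with DESeq2. The median log2 fold change of the 10 was -0.30, -0.70 with library size, -0.72 with housekeeping scaling, -0.57 with the length correction and -0.57 with length and GC content. Leaving out 1 liver each gave 0 to 619 genes called, 0 to 4 members (4 without liver 3.2), 0 to 1 other family genes, 0 to 4 partners and a median from -0.59 to -0.24. The 0 calls came without livers 5.1, 7.2, 1.1 or 1.3, where 3114 to 3993 genes had an unadjusted p under 0.05, and the 2 livers left in 1 group were assumed to vary like the other 3. The log2 ratio of Anxa2 to S100a10 stayed between -0.63 and -0.41. Of 160 alternative values for single members, 126 kept direction and side of the threshold, 25 were past it and 9 changed sign. The sign changed for S100a4 without liver 1.1 (0.062), for S100a10 with RLE factors (0.0067) and without livers 7.1 (0.082), 7.2 (0.058), 1.1 (0.080) or 1.3 (0.11), and for Lgals1 without livers 7.2 (0.021), 1.1 (0.020) or 1.3 (0.11), and none of these passed a threshold. The cause was not tested. No paired analysis was possible because the groups share no mouse number in the labels.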
